A study of Mus musculus with 12 samples.

Results

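Zfr and 8 other genes of mouse chromosome 15 (Capsl, Nipbl, Prkaa1, Ptger4, Skp2, Golph3, Drosha and Gm2093) were followed in splenic regulatory T (Treg) cells that differ at the Rictor locus of the same chromosome. They were picked by symbol from a list of genes whose starts lie within 15 Mb of the start of Rictor, and are 9 of the 67 genes of that stretch and of the 25189 genes in the count table. The list was drawn up with results of these libraries in view, so every value that sets double-deficient cells against another group is given for these 9 genes as a description without a test. All 9 had enough reads to enter the model of 13196 genes. Gm2093 reached that level through the double-deficient libraries alone, where it was high.

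Treg cells are CD4 T cells that hold other immune cells in check, and Foxp3 is the transcription factor that defines them. The 12 libraries, from 4-week-old female mice, formed 3 groups of 4: double-deficient cells (Foxp3∆EGFPiCreRictor∆/∆), Foxp3-deficient cells (Foxp3∆EGFPiCre) and WT cells (Foxp3RFP). In the Foxp3∆EGFPiCre allele the Foxp3 locus itself drives a green reporter and Cre recombinase, and the mice also carried the R26YFP reporter. The labels name 2 mouse genotypes, Foxp3∆EGFPiCre/RFP with R26YFP and Foxp3∆EGFPiCre/+ Rictor∆/∆ with R26YFP, and in both the second Foxp3 allele is another one, so that the animals could also hold Treg cells with working Foxp3. Cells were sorted 2 times as CD4+RFP+ or CD4+YFP+. The labels tie no library to an animal, and p-values therefore measure only how far libraries differ, which may be technical. They give neither the strain background nor the origin of the Rictor allele. No Rictor allele is named for the Foxp3-deficient or the WT cells.

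RICTOR is the subunit that defines mTOR complex 2, a kinase complex that phosphorylates AKT. An allele made by gene targeting travels with the stretch of chromosome that flanked it in the founder cell until recombination separates them, so that genes linked to a targeted locus may differ between genotypes by descent as well as by the loss of the gene. The 9 genes have unrelated roles. ZFR is an RNA-binding protein with zinc fingers and a DZF domain that acts in RNA splicing, DROSHA cuts primary microRNA transcripts in the nucleus, and NIPBL loads the cohesin ring onto DNA. PRKAA1 is a catalytic subunit of the energy sensor AMPK, PTGER4 is the prostaglandin E2 receptor EP4, SKP2 is the substrate-binding subunit of an SCF ubiquitin ligase, GOLPH3 is a Golgi protein that binds the lipid PI4P, and CAPSL is a calcyphosine-like EF-hand protein. Gm2093 is annotated as a long noncoding RNA.

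The libraries held between 15769737 and 26114044 reads in genes. Levels are CPM, that is counts scaled to a common library size corrected by TMM, as mean ± SD over n = 4, and a gene counts as changed where the edgeR quasi-likelihood test gave a Benjamini-Hochberg adjusted p under 0.05 over all tested genes. Foxp3 itself lay between 91.8 and 122 CPM in double-deficient, between 87.9 and 142 CPM in Foxp3-deficient and between 556 and 705 CPM in WT libraries. Rictor lay between 130 and 157 CPM in double-deficient, between 163 and 229 CPM in Foxp3-deficient and between 133 and 168 CPM in WT libraries, so the sum over the whole gene did not set double-deficient apart from WT cells. The sources used here do not say which exons were deleted, and a gene-wide count does not check the Rictor label. Summed T cell markers lay between 4820 and 5990 CPM in all libraries. Summed B cell markers, most of it Ighm, lay between 776 and 944 CPM in double-deficient, between 673 and 836 CPM in Foxp3-deficient and between 1270 and 1500 CPM in WT libraries. The CD8 T cell markers, most of it Cd8b1, summed to between 24.9 and 27.5 CPM in double-deficient, between 14.5 and 20.6 CPM in Foxp3-deficient and between 17.2 and 21.2 CPM in WT libraries, and Cd8a did not exceed 0.985 CPM. Summed markers of myeloid, dendritic, NK and erythroid cells stayed at or below 9.15 CPM. The part of these markers in the results was not tested. Reads that did not align uniquely made up 31.1% to 33.1% in double-deficient, 23% to 29.5% in Foxp3-deficient and 25.9% to 28.5% in WT libraries. Reads outside genes made up 4.63% to 5.47% in double-deficient, 6.22% to 9.27% in Foxp3-deficient and 7.52% to 8.75% in WT libraries, and double-deficient libraries had lower levels of genes with long exonic sequence: the median log2 fold change against the other 2 groups was 0.20 in the shortest and -0.21 in the longest of 5 length classes. Fold changes are therefore also given with the trend in exonic length and GC taken out of every library. For Rictor the log2 fold change of double-deficient cells was -0.42 (edgeR adjusted p = 0.0129) against Foxp3-deficient cells, or -0.23 (adjusted p = 0.0716) with the trend removed. Against WT cells it was -0.08 (adjusted p = 0.626). Foxp3-deficient against WT cells gave 0.35 (adjusted p = 0.0494), or 0.40 (adjusted p = 0.0038) with the trend removed. The call at 0.0494 was lost with several single libraries left out. On principal components, Foxp3-deficient libraries 1 and 3 stood apart from the rest.

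The promoters of the 2 genes whose double-deficient libraries all lay outside the range of the other 8 are shown because they start the transcripts whose levels differ most, Zfr to the right of Rictor and Gm2093 to its left. Both are the plus strand of the GRCm38.p6 assembly from RefSeq, 5′ to 3′, from 250 bases before to 50 bases after the annotated start, with CCAAT and its reverse complement ATTGG in capitals where present. A RefSeq promoter was at hand for 8 of the 9 genes.
Zfr promoter, chr15:12117601-12117900: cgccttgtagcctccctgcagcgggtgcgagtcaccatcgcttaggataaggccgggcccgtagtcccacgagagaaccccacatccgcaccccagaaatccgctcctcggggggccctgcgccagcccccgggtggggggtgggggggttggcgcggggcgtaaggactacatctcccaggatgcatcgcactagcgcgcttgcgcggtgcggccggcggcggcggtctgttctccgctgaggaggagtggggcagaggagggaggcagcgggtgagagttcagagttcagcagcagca
Gm2093 promoter, chr15:3995789-3996088: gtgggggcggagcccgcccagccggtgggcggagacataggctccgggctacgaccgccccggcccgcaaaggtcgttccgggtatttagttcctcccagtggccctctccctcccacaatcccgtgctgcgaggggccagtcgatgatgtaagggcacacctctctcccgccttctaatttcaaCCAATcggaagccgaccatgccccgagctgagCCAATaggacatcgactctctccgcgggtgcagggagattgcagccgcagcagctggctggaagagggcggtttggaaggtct
The Zfr window held 27 CpG dinucleotides at 69% GC and the Gm2093 window 23 at 64.3% GC, against medians of 7 and 52.7% over 32817 promoter windows of the same length. The searched pentamers matched 2 times, at -65 and -33 from the start, in the Gm2093 window and nowhere in the Zfr window, and 37.4% of all windows held at least one on either strand.

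Zfr was about 3-fold lower in double-deficient cells than in either other group, the clearest fall among the 9 genes. The gene (ENSMUSG00000022201.16) spans chr15:12117831-12185683 on the plus strand of GRCm38, 5.41 Mb beyond the start of Rictor, with 5911 bases of exon. Its level was 59.7, 51.5, 52.7 and 57.7 CPM in double-deficient libraries, against 156, 148, 165 and 164 CPM in Foxp3-deficient and 173, 171, 168 and 187 CPM in WT libraries. Every double-deficient library lay below every other library, and the 4 values within each group differed little. The means were 55.4 ± 3.91 CPM in double-deficient, 158 ± 7.71 CPM in Foxp3-deficient and 175 ± 8.52 CPM in WT cells. On the log2 scale double-deficient cells stood at -1.51 (SE 0.08) against Foxp3-deficient cells, a 2.86-fold lower level, and at -1.66 (SE 0.08) against WT cells, a 3.15-fold lower level. With the length and GC trend removed these were -1.51 and -1.62, and with any single library left out they ranged from -1.55 to -1.47 and from -1.69 to -1.62. Among all 13196 tested genes, 199 had a lower fold change than Zfr against Foxp3-deficient cells and 337 against WT cells. Among the 8381 genes that averaged 10 CPM or more these were 9 and 26. Zfr was listed with such values known, so these ranks are a description.

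All 4 Foxp3-deficient libraries lay below the WT libraries for Zfr, but the difference of -0.14 (SE 0.07) on the log2 scale did not pass the test (edgeR adjusted p = 0.251). The microRNA gene Mir1898 lies within Zfr on the same strand and had 61 reads over the 12 libraries, and the snRNA Gm25713 on the opposite strand had 7. In a bulk sample, fewer cells that express a gene and less RNA per cell cannot be told apart.

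**Figure D1:**
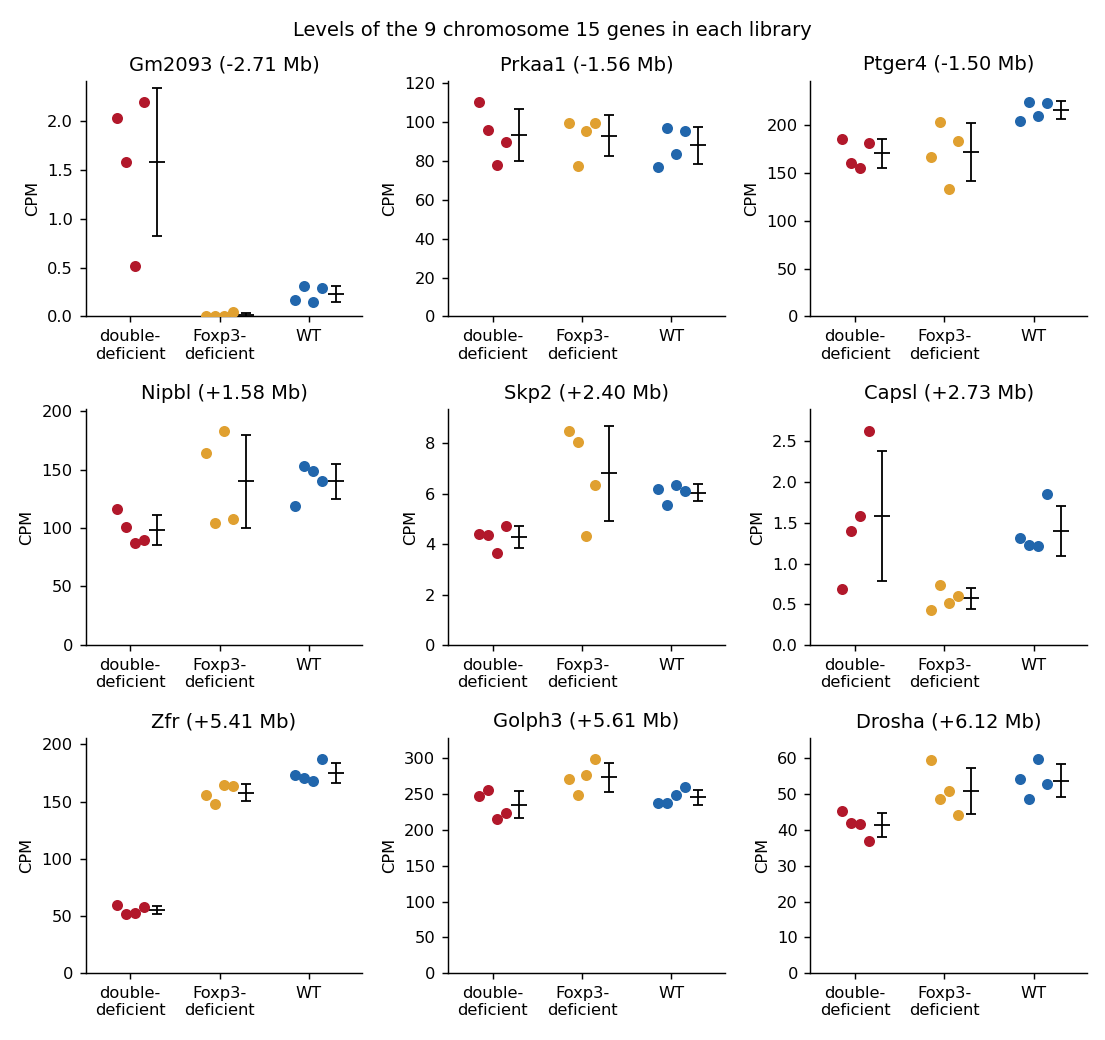
Level of each of the 9 genes in CPM (vertical axes, from 0) in the 4 double-deficient (red), 4 Foxp3-deficient (yellow) and 4 WT (blue) libraries; points are libraries, black bars the mean ± SD, and the distance from the start of Rictor stands in each panel title. Zfr lies between 51.5 and 59.7 CPM in double-deficient libraries, below all others, and Gm2093 is the gene whose double-deficient libraries all lie above the other 8.

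Gm2093 differed in the opposite direction. It spans chr15:3996039-4015858 on the plus strand, 2.71 Mb before the start of Rictor, and its exons cover 3526 bases. The libraries held 41, 35, 11 and 40 of its reads in double-deficient cells, against 0, 0, 0 and 1 in Foxp3-deficient and 3, 5, 4 and 7 in WT cells. These correspond to 2.03, 1.58, 0.515 and 2.19 CPM in double-deficient, to 0.0433 CPM in Foxp3-deficient library 5, and to 0.17, 0.308, 0.147 and 0.295 CPM in WT libraries. All double-deficient libraries were above all others, and all Foxp3-deficient libraries were below all WT libraries, so the 3 groups did not overlap. Double-deficient library 4 was the lowest of its group.

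By summed reads, Gm2093 was 6.91-fold higher in double-deficient than in WT cells (127 against 19 reads, 95% counting interval 4.25 to 11.9). Against Foxp3-deficient cells the ratio was 120 on 127 against 1 read, with an interval from 21.1 to 4760. It rested on that 1 read of Foxp3-deficient library 5: without this library the group had 0 reads, and the level was at least 27.9-fold higher in double-deficient cells taking 3 reads in the whole group as the floor. Such intervals and bounds reflect counting error alone, because no molecular identifiers separate PCR copies. Foxp3-deficient cells had 0.0578 times the WT level of Gm2093 (1 against 19 reads, interval 0.00139 to 0.364). Without Foxp3-deficient library 5 the level was at least 4.04-fold lower by the same floor. No test is given for this pair of groups either, because the gene entered the model through the double-deficient libraries.

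The start of Gm2093 lies 295 bases from that of AW549877, a protein-coding gene transcribed the other way, so the printed Gm2093 promoter covers nearly all of the stretch between both starts. AW549877, singled out after its values were seen, went in the other direction. Its level was 50.4, 48.6, 43.0 and 40.6 CPM in double-deficient libraries, against 87.2, 67.2, 64.4 and 57.7 CPM in Foxp3-deficient and 66.0, 75.0, 73.5 and 56.6 CPM in WT libraries. Every double-deficient library was below the other 8. The log2 fold change against the other 2 groups was -0.58 (SE 0.11; edgeR adjusted p = 0.00161), and -0.64 with the length and GC trend removed.

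Nipbl, Skp2 and Drosha were lower on average in double-deficient cells, by less than Zfr and with libraries that overlapped other groups. Nipbl, 1.58 Mb beyond Rictor, had 116, 101, 87.4 and 89.5 CPM in double-deficient libraries, against 164, 104, 183 and 108 CPM in Foxp3-deficient and 119, 153, 149 and 140 CPM in WT libraries. The double-deficient libraries all lay below the WT libraries, whereas Foxp3-deficient libraries 3 and 5 fell within the double-deficient range and libraries 1 and 4 above every WT library. Its log2 fold change was -0.51 (SE 0.16) both against Foxp3-deficient and against WT cells, or -0.45 and -0.44 with the trend removed. Foxp3-deficient and WT cells had nearly the same mean, 140 ± 39.8 and 140 ± 15.1 CPM (edgeR adjusted p = 0.992).

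Skp2, 2.40 Mb beyond Rictor, was expressed at a low level, with 4.41, 4.37, 3.65 and 4.71 CPM in double-deficient libraries, against 8.5, 8.04, 4.34 and 6.37 CPM in Foxp3-deficient and 6.19, 5.54, 6.35 and 6.11 CPM in WT libraries. Only Foxp3-deficient library 4 reached into the double-deficient range. The log2 fold change was -0.67 (SE 0.21) against Foxp3-deficient and -0.50 (SE 0.21) against WT cells, or -0.55 and -0.35 with the length and GC trend removed. Skp2 is in the longest length class, and it overlaps Lmbrd2 on the opposite strand. How reads of that shared stretch were assigned is not known, because no source used here states whether counting was stranded. Skp2 did not differ by the test between Foxp3-deficient and WT cells (0.17, SE 0.21, edgeR adjusted p = 0.679).

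Drosha, 6.12 Mb beyond Rictor and the farthest of the 9, had 45.2, 41.9, 41.6 and 37.0 CPM in double-deficient libraries, against 59.3, 48.6, 50.9 and 44.1 CPM in Foxp3-deficient and 54.0, 48.6, 59.6 and 52.8 CPM in WT libraries. A single Foxp3-deficient library, number 5, lay within the double-deficient range. The log2 fold change was -0.29 (SE 0.11) against Foxp3-deficient and -0.38 (SE 0.11) against WT cells, and -0.20 and -0.26 with the trend removed. Foxp3-deficient against WT cells gave -0.08 (SE 0.11, edgeR adjusted p = 0.69). No tested gene lay between Drosha and the 15 Mb limit. The nearest tested gene outside it, Basp1 at 18.65 Mb, had 9.96 ± 2.21 CPM in double-deficient, 5.49 ± 1.38 CPM in Foxp3-deficient and 2.74 ± 0.364 CPM in WT cells.

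Prkaa1 and Golph3, one on each side of Rictor, showed small differences. Prkaa1, 1.56 Mb before Rictor, had 110, 95.6, 77.7 and 89.7 CPM in double-deficient, 99.6, 77.3, 95.5 and 99.5 CPM in Foxp3-deficient and 77.0, 96.8, 83.3 and 95.1 CPM in WT libraries. The 3 ranges lay over each other. Log2 fold changes in the double-deficient group were 0.00 (SE 0.12) against Foxp3-deficient and 0.08 (SE 0.12) against WT cells. With the trend removed these were -0.10 and 0.02. Foxp3-deficient against WT cells gave 0.08 (SE 0.12, edgeR adjusted p = 0.734).

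Golph3, just past Zfr and Mtmr12 at 5.61 Mb beyond Rictor, had 247, 256, 215 and 224 CPM in double-deficient, 271, 249, 276 and 298 CPM in Foxp3-deficient and 237, 237, 249 and 259 CPM in WT libraries. Double-deficient and WT libraries overlapped, and double-deficient library 3 also reached into the Foxp3-deficient range. The log2 fold change of double-deficient cells was -0.22 (SE 0.08) against Foxp3-deficient and -0.06 (SE 0.08) against WT cells. With the trend removed these were -0.30 and -0.06. Foxp3-deficient cells stood at 0.16 (SE 0.08) against WT cells, which did not pass the test (edgeR adjusted p = 0.232), though it did with the length and GC trend removed (0.24, adjusted p = 0.0363).

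Ptger4 separated WT cells from both deficient groups rather than double-deficient cells from the rest. It lies 1.5 Mb before Rictor and had 186, 161, 155 and 182 CPM in double-deficient libraries, against 167, 204, 133 and 184 CPM in Foxp3-deficient and 205, 224, 210 and 223 CPM in WT libraries. Every WT library was above all 8 deficient ones, but by little: WT library 1 had 205 CPM and Foxp3-deficient library 3 had 204 CPM. The log2 fold change was -0.01 (SE 0.11) for double-deficient against Foxp3-deficient cells, -0.33 (SE 0.11) for double-deficient against WT cells (-0.19 with the trend removed) and -0.32 (SE 0.11) for Foxp3-deficient against WT cells. The last of these did not pass the test (edgeR adjusted p = 0.0617), nor with the trend removed (-0.29, adjusted p = 0.134). It did pass under some other settings, among them DESeq2 (adjusted p = 0.0476) and the replicate block (edgeR adjusted p = 0.0334), and without Foxp3-deficient library 3. The B cell markers given above were likewise higher in WT than in all deficient libraries, and their part in this difference was not tested. Ptger4 overlaps Ttc33 on the opposite strand. No source used here states whether counting was stranded, so how reads of the shared stretch were assigned is not known.

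Capsl, 2.73 Mb beyond Rictor, was rare, with 14, 31, 34 and 48 reads in double-deficient libraries, against 8, 12, 10 and 14 reads in Foxp3-deficient and 23, 20, 33 and 44 reads in WT libraries. In CPM these were 0.693, 1.40, 1.59 and 2.63 in double-deficient, 0.433, 0.736, 0.517 and 0.607 in Foxp3-deficient and 1.31, 1.23, 1.21 and 1.85 in WT libraries. Foxp3-deficient libraries lay below all WT libraries, and double-deficient libraries spanned both ranges. The log2 fold change was 1.45 (SE 0.41) for double-deficient against Foxp3-deficient cells and 0.16 (SE 0.38) for double-deficient against WT cells. Between Foxp3-deficient and WT cells it was -1.29 (SE 0.41; edgeR adjusted p = 0.0467), a call at the threshold that was lost without any one of 9 libraries: each of the 4 WT, Foxp3-deficient 1, 4 and 5, and double-deficient 3 and 4.

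**Figure D2:**
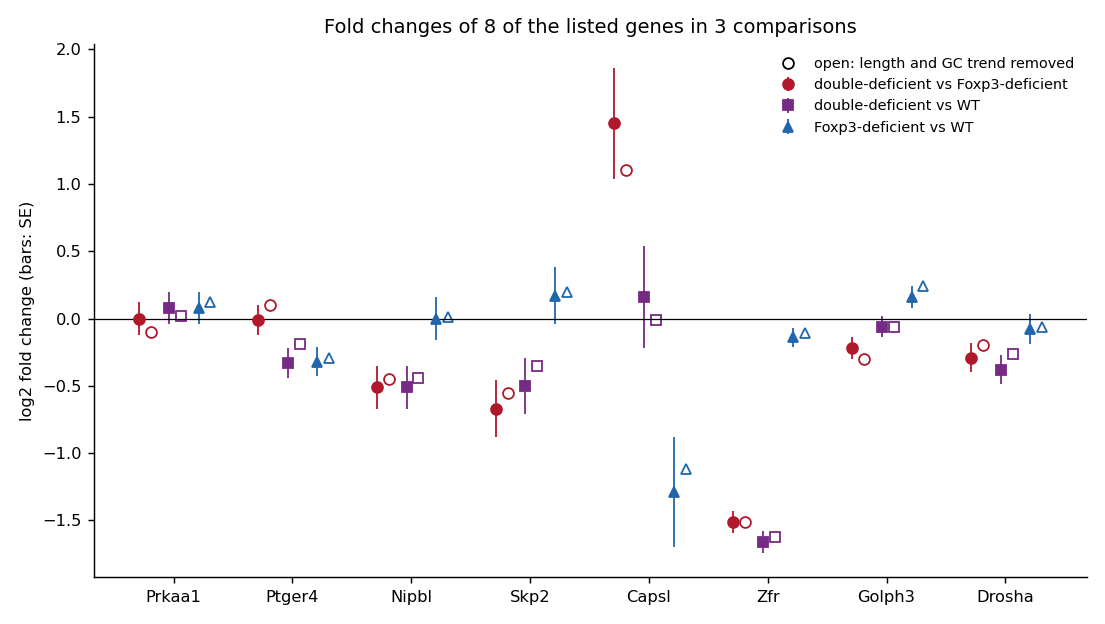
Log2 fold change (vertical axis) of 8 of the 9 genes in order of position, for double-deficient against Foxp3-deficient (circles), double-deficient against WT (squares) and Foxp3-deficient against WT cells (triangles); bars are standard errors, and open symbols have the length and GC trend removed. Zfr lies at -1.51 and -1.66 in the double-deficient comparisons and at -0.14 in the third; Gm2093, with 1 read in Foxp3-deficient cells, is left out.

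Per kilobase of exon, which allows levels to be compared between genes, the order of the 9 differed between genotypes mainly by the place of Zfr. In double-deficient cells Golph3 was highest at 72.3 ± 5.90 CPM per kb, followed by Ptger4 at 25.7 ± 2.27, Prkaa1 at 20 ± 2.88, Nipbl at 10.4 ± 1.39, Zfr at 9.38 ± 0.662 and Drosha at 6.98 ± 0.569 CPM per kb. Ptger4 and Prkaa1 overlapped there, as did Nipbl and Zfr, and Drosha, with at most 7.62 CPM per kb, lay just below Zfr. In Foxp3-deficient cells Zfr was the second at 26.8 ± 1.30 CPM per kb, overlapping Ptger4 at 25.9 ± 4.55. In WT cells it was the third at 29.6 ± 1.44 CPM per kb, after Ptger4 at 32.4 ± 1.45, again with overlapping libraries. Capsl, Skp2 and Gm2093 were below 3 CPM per kb in all libraries, with Skp2 above Capsl on average in Foxp3-deficient cells and below it in the other 2 groups.

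Over the whole model 27.2% of genes passed the test between double-deficient and Foxp3-deficient cells, 32.6% between double-deficient and WT cells, 13.7% between Foxp3-deficient and WT cells, and 34.3% between double-deficient cells and the other 2 groups together. Of the 9 genes, 5, 5, 2 and 5 passed in these comparisons in that order. The comparisons share libraries, and in the 3 with double-deficient cells the genes were listed with the outcome known, so nothing is read from those counts. The 2 of the comparison between Foxp3-deficient and WT cells, where 6.99% of all tested genes rose and 6.74% fell, were Capsl and Gm2093. The call of Capsl is at the threshold, as given above, and that of Gm2093 is not read. With the length and GC trend removed the 2 were Gm2093 and Golph3, and Capsl missed the threshold (edgeR adjusted p = 0.0571).

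The rest of the segment bears on how frequent differences between genotypes were around Rictor. It is bounded by position, but it is what remains after taking out the 9 genes, which were listed with results in view. It held 30 tested genes besides Rictor and the 9, all with starts between 3.44 Mb before and 6.10 Mb beyond the start of Rictor. Double-deficient cells differed from the other 2 groups together in 15 of these 30 (50%), against 34.3% of all tested genes. Of these, 11 were higher and 4 lower, against 17.5% and 16.9% of all tested genes. With the length and GC trend removed the count was 9 of 30 (30%), against 30.1% of all tested genes. With the 9 genes put back the counts were 20 of 39 (51.3%) and, with the trend removed, 13 of 39 (33.3%). The median size of the log2 fold change was 0.31 in the segment and 0.29 over all tested genes. For 8 of the 30 genes (26.7%) the 4 double-deficient libraries lay all above or all below the other 8, against 15.7% of all tested genes. In 5 they were above and in 3 below, against 9.22% and 6.48% of all tested genes. The share of changed genes in the segment was thus above that of all genes before the trend was removed and next to it afterwards for the 30 genes, and no test of the share was made. This comparison takes the mean of Foxp3-deficient and WT cells, so genes that set both deficient groups apart from WT cells can also pass. Foxp3 itself passed (-1.42, edgeR adjusted p = 1.12e-06), with -0.21 (adjusted p = 0.246) against Foxp3-deficient cells alone. Sepp1, among the 15, stood at 0.30 (adjusted p = 0.00397), with 0.02 (adjusted p = 0.861) against Foxp3-deficient cells alone.

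Between double-deficient and Foxp3-deficient cells 11 of the 30 (36.7%) passed, 8 higher and 3 lower, against 13.9% and 13.3% of all tested genes. Between double-deficient and WT cells 12 of the 30 (40%) passed, 8 higher and 4 lower, against 15.8% and 16.8% of all tested genes. Between Foxp3-deficient and WT cells 2 of the 30 (6.67%) passed, both higher. With the trend removed the 3 counts were 6 (20%), 10 (33.3%) and 2 (6.67%), against 21.1%, 32.2% and 16.7% of all tested genes. The first count also fell to 6 without double-deficient library 3 or without double-deficient library 5. None of the 3 tested genes nearest to Rictor, Fyb, Gm2245 and Gm7666, all within 0.19 Mb of its start, passed the edgeR test against the other 2 groups. Unadjusted p was under 0.05 for 2 of them, and DESeq2 and limma-voom each called 1. Fyb encodes an adaptor protein of T cell receptor signalling and had 483 ± 24.6 CPM in double-deficient, 553 ± 40.2 CPM in Foxp3-deficient and 533 ± 27.6 CPM in WT cells.

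**Figure D3:**
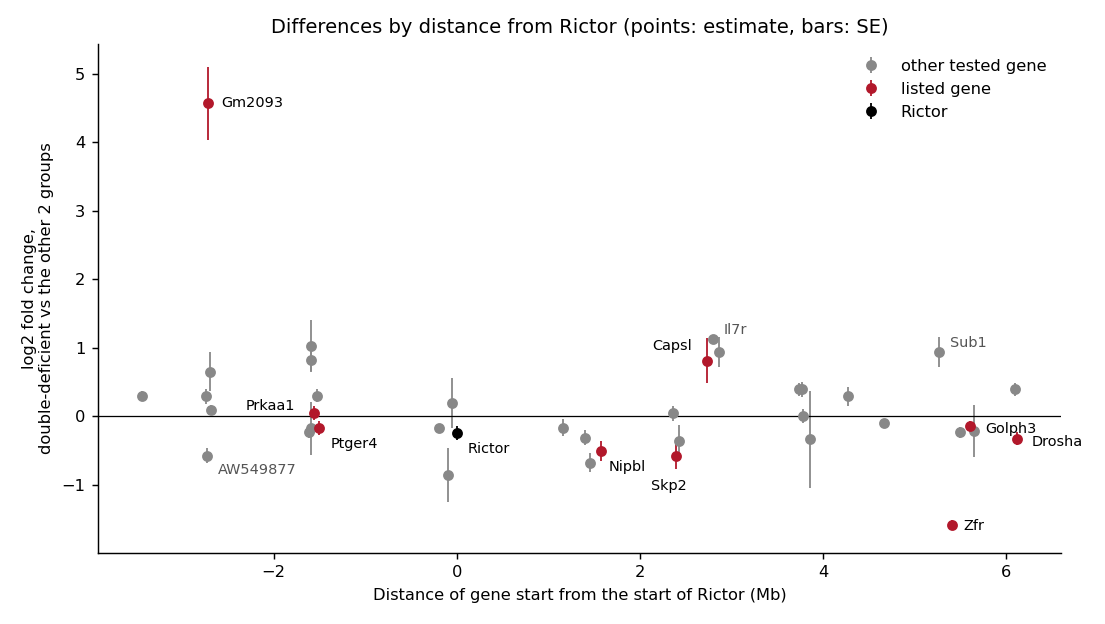
Log2 fold change of double-deficient cells against the other 2 groups (vertical axis, bars are SE) by distance of the gene start from the start of Rictor in Mb (horizontal axis), for the 9 listed genes (red), the 30 other tested genes (grey) and Rictor (black). Zfr at -1.59 is the lowest point and Il7r at 1.12 the highest of the grey ones; the value of Gm2093 depends on the fit's prior count because Foxp3-deficient cells had 1 read.

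The next stretch of chromosome 15, with starts 15 to 30 Mb from that of Rictor and counted by itself after its values were seen, had as high a share as the segment itself. Of its 28 tested genes 14 (50%) differed between double-deficient cells and the other 2 groups, and 14 (50%) with the trend removed. In 5 of the 28 (17.9%) the double-deficient libraries lay all above or all below the other 8. Between double-deficient and WT cells 16 of the 28 passed (57.1%), and between Foxp3-deficient and WT cells, which have no named Rictor allele, 9 (32.1%), against 32.6% and 13.7% of all tested genes. With the trend removed these were 15 (53.6%) and 11 (39.3%), against 32.2% and 16.7%. No test of these shares was made. Beyond 30 Mb the share against the other 2 groups was 33% of 412 genes, and 31.1% with the trend removed. Within 15 Mb of Foxp3 on the X chromosome it was 34.8% of 69 genes, and within 15 Mb of the R26 locus, Gt(ROSA)26Sor on chromosome 6, 35.7% of 171 genes. Across chromosomes the share ran from 30.7% on chromosome 14 to 37.8% on chromosome 6, with 35.4% on chromosome 15. Since all 4 double-deficient libraries carry the Rictor deletion together with whatever flanks it, loss of Rictor and the descent of the segment cannot be told apart in this design. The 2 named genotypes also differ in the second Foxp3 allele, and double-deficient libraries differ in the read shares and length trend given above. These cannot be separated from the Rictor allele either.

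**Figure D4:**
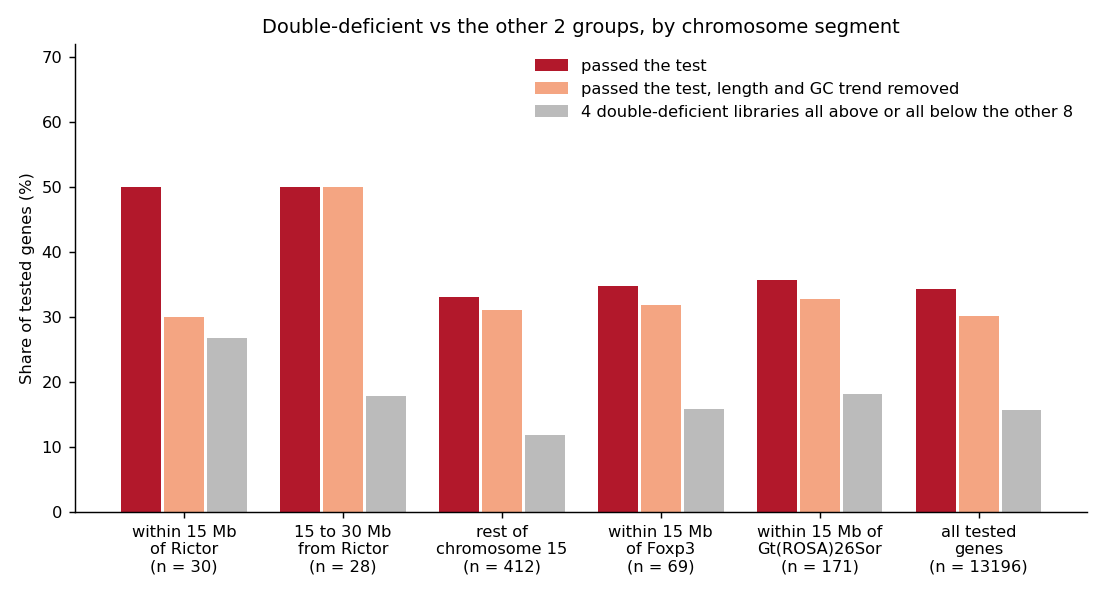
Share of tested genes in percent (vertical axis) that passed the test between double-deficient cells and the other 2 groups (red), that passed with the length and GC trend removed (orange), and whose 4 double-deficient libraries lay all above or all below the other 8 (grey), by chromosome segment; n is the number of tested genes. The segment around Rictor, without the 9 listed genes, has 50%, 30% and 26.7%, the stretch 15 to 30 Mb from it 50%, 50% and 17.9%, and all tested genes 34.3%, 30.1% and 15.7%.

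The 2 genes next to Zfr moved less than Zfr and in different directions. Sub1, upstream of it, encodes a coactivator that binds single-stranded DNA and had 268, 315, 333 and 383 CPM in double-deficient libraries, against 92.7, 274, 146 and 226 CPM in Foxp3-deficient and 150, 154, 138 and 189 CPM in WT libraries. All but Foxp3-deficient library 3 lay below the double-deficient range. Sub1 was higher in double-deficient cells by 0.93 (SE 0.22) on the log2 scale against the other 2 groups (edgeR adjusted p = 0.0076). Mtmr12, a myotubularin-related protein without phosphatase activity, had 155 ± 8.42 CPM in double-deficient, 184 ± 20.9 CPM in Foxp3-deficient and 180 ± 13.4 CPM in WT cells. Its difference of -0.24 (SE 0.08, edgeR adjusted p = 0.0279) was -0.09 with the trend removed (adjusted p = 0.323). It also lost the call without WT library 1 or 4 or without double-deficient library 3 or 5. Next to Drosha, 6030458C11Rik, chosen after its values were seen, was higher in double-deficient cells by 0.39 (SE 0.10, edgeR adjusted p = 0.00743), while Drosha was lower on average.

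Among the named genes of the segment, Il7r, the receptor chain for interleukin-7, gave the widest separation. It had 589, 510, 604 and 621 CPM in double-deficient libraries, against 356, 389, 374 and 318 CPM in Foxp3-deficient and 198, 212, 204 and 180 CPM in WT libraries. The 3 groups formed separate steps. Double-deficient cells were higher by 0.69 (SE 0.09) on the log2 scale than Foxp3-deficient cells (edgeR adjusted p = 0.000106), and Foxp3-deficient cells were higher by 0.85 (SE 0.09) than WT cells (adjusted p = 5.04e-06). Both calls held under every setting tried.

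Rpl37, a protein of the large ribosomal subunit, had 13.1 ± 0.792 CPM in double-deficient, 7.03 ± 2.10 CPM in Foxp3-deficient and 7.86 ± 1.97 CPM in WT cells. The difference against the other 2 groups was 0.82 (SE 0.18, edgeR adjusted p = 0.0036). Only uniquely aligned reads were counted, and the share of reads not aligned uniquely, given above, was highest in double-deficient libraries. Its part in the Rpl37 difference was not tested. Spef2, known from the sperm flagellum, had 6.36 ± 0.526 CPM in double-deficient, 3.85 ± 1.51 CPM in Foxp3-deficient and 2.92 ± 0.397 CPM in WT cells (0.93, SE 0.22, adjusted p = 0.00467). Both had all double-deficient libraries above the other 8. A pair of ribosome biogenesis factors also rose by the test, Dnajc21 by 0.39 (SE 0.10, adjusted p = 0.00715) and Brix1 by 0.39 (SE 0.11, adjusted p = 0.0105), the second of which came to 0.20 (adjusted p = 0.0652) with the trend removed. Fbxo4, an F-box protein, and Ttc33, a tetratricopeptide repeat protein, rose against Foxp3-deficient cells by 0.44 (SE 0.13, adjusted p = 0.0186) and 0.40 (SE 0.12, adjusted p = 0.0269), and with the trend removed they stood at 0.25 (adjusted p = 0.166) and 0.13 (adjusted p = 0.343). The call of Fbxo4 was also lost without Foxp3-deficient library 4, and that of Ttc33 without any one of Foxp3-deficient 1 and 4 and double-deficient 3 and 5, and without both Foxp3-deficient 1 and 3.

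Besides AW549877 and Mtmr12, the gene model 2410089E03Rik, chosen after its values were seen, was lower in double-deficient cells. It had 15.8 ± 2.20 CPM in double-deficient, 26.4 ± 5 CPM in Foxp3-deficient and 24.3 ± 2.86 CPM in WT cells (-0.68, SE 0.14, edgeR adjusted p = 0.00206). Nup155, named only to complete the 4 lower genes, changed by -0.32 (SE 0.11, adjusted p = 0.0404), or -0.18 (adjusted p = 0.174) with the trend removed. Card6, a CARD domain protein, was lower against WT cells (-0.36, SE 0.11, adjusted p = 0.0182). Against the other 2 groups together it missed the threshold (adjusted p = 0.0714). The call of Card6 was lost without WT library 3 or without double-deficient library 5. Sepp1, the selenium carrier selenoprotein P, was similar in both deficient groups and lower in WT cells. It had 459 ± 38.7 CPM in double-deficient and 452 ± 34.4 CPM in Foxp3-deficient cells, against 309 ± 8.22 CPM in WT cells, and was higher by 0.55 (SE 0.08) in Foxp3-deficient than in WT cells (edgeR adjusted p = 0.000139). WT libraries also had the higher B cell marker sums given above, whose part in this difference was not tested.

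Genes on other chromosomes matched the pattern of Zfr over the 12 libraries most closely. By Pearson's r of log2 CPM these were Bcl6 (0.97), Gpr155 (0.968), Nbas (0.964), Tacc1 (0.961) and St3gal2 (0.96), on chromosomes 16, 2, 12, 8 and 8. The libraries fall into a low and a high cluster for these genes, so r mostly restates that step and is given as a description. Chromosome 15 holds only 480 of the 13196 tested genes, so nothing is read from its absence among the 5. Bcl6, a transcriptional repressor of follicular helper T cells, had 14.5 ± 0.859 CPM in double-deficient, 47.8 ± 10.6 CPM in Foxp3-deficient and 43.8 ± 4.37 CPM in WT cells. Gpr155, a lysosomal membrane protein, had 17.7 ± 2.56 CPM in double-deficient, 39.3 ± 5.51 CPM in Foxp3-deficient and 42.8 ± 4.92 CPM in WT cells. Of the 5, Tacc1 had the smallest difference, with 82.6 ± 2.66 CPM in double-deficient, 110 ± 9.34 CPM in Foxp3-deficient and 115 ± 3.84 CPM in WT cells. Its log2 fold change against the other 2 groups, -0.45, came to -0.16 with the length and GC trend removed (edgeR adjusted p = 0.0763). With the trend removed Bcl6 stood at -1.52, Gpr155 at -1.19, Nbas at -0.62 and St3gal2 at -0.62.

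**Figure D5:**
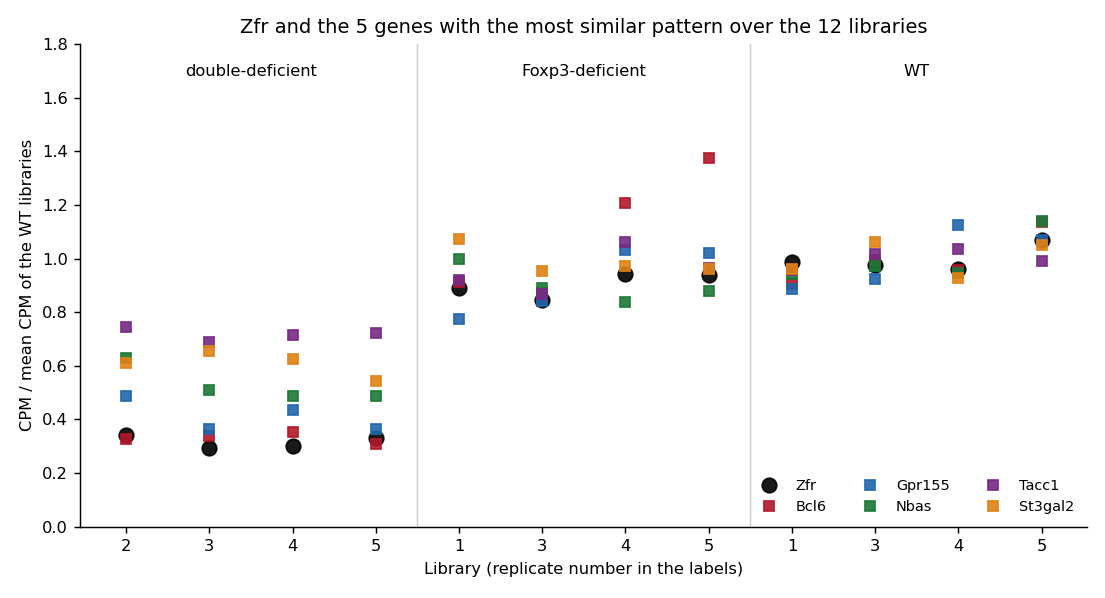
Level of Zfr (black circles) and of the 5 genes with the highest correlation with it (squares), each divided by its own mean in the WT libraries (vertical axis, from 0), in the 12 libraries by group and replicate number (horizontal axis). All 6 genes lie lower in the 4 double-deficient libraries than in the other 8, with Tacc1 the least so.

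The partners of the 9 proteins, mostly encoded on other chromosomes, were counted as lists without the 9 themselves. The lists were chosen with results of these data known, so their counts are a description and nothing is read from the shares. Between double-deficient cells and the other 2 groups 34.3% of all tested genes passed, 17.5% higher and 16.9% lower, with a median log2 fold change of -0.02, and 30.1% passed with the length and GC trend removed. Of 10 tested genes of microRNA processing 5 passed in this comparison, all lower, with a median of -0.41 over the 10, and 4 passed with the trend removed, also all lower. Dicer1, which cuts the precursors that DROSHA releases, had 46.1 ± 7.05 CPM in double-deficient, 82.3 ± 4.53 CPM in Foxp3-deficient and 72.2 ± 3.58 CPM in WT cells (-0.74, SE 0.09, edgeR adjusted p = 3.83e-05), and -0.43 (adjusted p = 0.0024) with the trend removed. Its double-deficient libraries all lay below the other 8. Xpo5, which exports those precursors, changed by -0.45 (SE 0.12, adjusted p = 0.0109) and Ago3 by -0.65 (SE 0.14, adjusted p = 0.00343), or -0.30 and -0.43 with the trend removed. Tarbp2, a Dicer partner, changed by -0.48 (SE 0.16, adjusted p = 0.0339), but the call was lost without any one of 7 libraries (WT 1, 3 and 4 and each of the 4 double-deficient), with limma-voom (adjusted p = 0.0513) and without both Foxp3-deficient 1 and 3 (-0.30, adjusted p = 0.0849). None of the 10 passed between Foxp3-deficient and WT cells by edgeR, where 1 had an unadjusted p under 0.05 and DESeq2 and limma-voom each called 1. The median log2 fold change there was 0.07.

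Of 4 relatives of Zfr with a DZF domain, none passed against the other 2 groups by edgeR, at an unadjusted p under 0.05, by DESeq2 or by limma-voom, but with the trend removed 3 passed, all higher. Zfr2, the closest, stood at -0.74 (SE 0.27, edgeR adjusted p = 0.0449) in double-deficient against WT cells. The call was lost without any one of 7 libraries and with the trend removed (-0.58, adjusted p = 0.0961). Foxp3-deficient cells were about as low, at -0.72 (SE 0.27, adjusted p = 0.0932) against WT cells. Between double-deficient and Foxp3-deficient cells Zfr2 differed by -0.02 (SE 0.27). Of 13 cohesin genes 5 passed, 3 higher and 2 lower, with a median of 0.00, and with the trend removed 4 passed, all higher. Esco1, an acetyltransferase of cohesin, had 332 ± 26.9 CPM in double-deficient, 243 ± 57.4 CPM in Foxp3-deficient and 200 ± 30.7 CPM in WT cells (0.59, SE 0.12, adjusted p = 0.00225). The cohesin deacetylase Hdac8 rose by 0.38 (SE 0.11, adjusted p = 0.013), a call lost without double-deficient library 5. The boundary factor Ctcf changed by -0.25 (SE 0.07, adjusted p = 0.0142), a call lost without double-deficient library 4 or 5 and with the trend removed (-0.18, adjusted p = 0.056). Esco2, another such enzyme, was higher by 1.48 in Foxp3-deficient than in WT cells (adjusted p = 0.0287), a call lost without any one of 5 libraries.

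Among the partners of GOLPH3, 3 of 5 tested genes passed, all lower, with a median of -0.34 over the 5, and 2 passed with the trend removed. Myo18a, the myosin that GOLPH3 binds, had 135 ± 9.99 CPM in double-deficient, 207 ± 26.7 CPM in Foxp3-deficient and 223 ± 9.06 CPM in WT cells (-0.68, SE 0.08, edgeR adjusted p = 2.75e-05), or -0.28 with the trend removed. The PI4P-making kinases Pi4kb and Pi4ka changed by -0.57 (SE 0.12, adjusted p = 0.00238) and -0.34 (SE 0.10, adjusted p = 0.0145), the second coming to -0.06 (adjusted p = 0.538) with the trend removed and losing the call without double-deficient library 3 or 5.

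Of 9 genes of the SCF ligase and its substrates 5 passed, 3 higher and 2 lower, with a median of 0.21. With the trend removed 2 passed, both lower (Cdkn1b and Fbxw7), and the 3 that were higher (Cul1, Cks1b and Skp1a) missed the threshold. Cdkn1b, the cell cycle inhibitor p27 that SKP2 marks for degradation, had 33.0 ± 6.86 CPM in double-deficient, 44.7 ± 7.07 CPM in Foxp3-deficient and 53.0 ± 10.2 CPM in WT cells (-0.56, SE 0.14, edgeR adjusted p = 0.00734). Cul1, the scaffold, and Cks1b, the cofactor of SKP2, differed by 0.21 (SE 0.06, adjusted p = 0.011) and 0.69 (SE 0.21, adjusted p = 0.0201), and with the trend removed by 0.11 (adjusted p = 0.13) and 0.53 (adjusted p = 0.0579). The call of Cks1b was also lost without double-deficient library 3.

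Of 8 AMPK genes 1 passed, with and without the trend: Prkag2, a regulatory subunit, had 32.0 ± 3 CPM in double-deficient, 42.3 ± 6.91 CPM in Foxp3-deficient and 46.4 ± 4.99 CPM in WT cells (-0.47, SE 0.11, edgeR adjusted p = 0.00478). Of 5 tested prostaglandin E2 genes 1 passed, and 2 with the trend removed: the receptor gene Ptger1, which passed in both, was lower, at 64.8 ± 6.11 CPM in double-deficient, 97.5 ± 17.6 CPM in Foxp3-deficient and 86.0 ± 3.75 CPM in WT cells (-0.50, SE 0.10, adjusted p = 0.00166). Ptger2, the receptor that like Ptger4 raises cyclic AMP, fell in Foxp3-deficient cells, at 44.1 ± 12.7 CPM against 85.8 ± 3.14 CPM in WT cells (-0.96, adjusted p = 0.00101). It had 68.9 ± 7.48 CPM in double-deficient cells, higher by 0.64 (SE 0.17) than in Foxp3-deficient cells (adjusted p = 0.0133).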

How the data were processed

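RNA from 12 libraries of sorted mouse Treg cells was converted to cDNA with the SMART-Seq v4 kit, per the labels, which name the library kit that followed in different ways. Reads were aligned to mm10 (GRCm38) with STAR 2.5.1b and counted with HTSeq on a Gencode annotation, per the submitters' processing notes. The version of HTSeq, its strand setting and the release of the annotation, were not given in the sources used here. Raw counts per gene, without normalization, are what the authors deposited. The 3 HTSeq summary lines were left out of library sizes and used as quality measures.

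Counts were fitted with edgeR 4.0.16 in R 4.3.3 (filterByExpr, TMM, robust quasi-likelihood F test, 1 model of 12 libraries and 3 groups without covariates). P-values were Benjamini-Hochberg adjusted over 13196 genes with a threshold of 0.05. The 4 contrasts share libraries. The script was tested on simulated data. GENCODE M21 gave positions for 97.5% of genes. Ratios of summed reads have exact 95% intervals. The members and the lists of partners were chosen with earlier results of these data known. Named were the 9 genes, Rictor, per contrast up to 8 called segment genes with the smallest adjusted p, segment genes whose double-deficient libraries lay outside the other 8 and that were called, up to 3 called genes per list (or the most abundant), and the 5 genes correlated most with Zfr (log2 CPM, prior count 2). Gene models and pseudogenes of the segment were left out of that rule. Alternatives were other scalings and filters, DESeq2 1.42.0, limma 3.58.1 voom, the replicate block, removal of the length and GC trend (splines, 5 degrees of freedom), single comparisons, other segment widths and leaving out libraries.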

Additional observations from a re-analysis of the deposited data

Results flagged for a closer look

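Of the 27 sets of 4 libraries examined (9 genes in 3 groups), 2 held a library far from the other 3. For measured levels chance gives about 1 in 20, but this rate does not apply to Gm2093, where any single read beside 0s would stand apart. Capsl had 1.85 CPM in WT library 5, against 1.21 to 1.31 CPM in the other 3 WT libraries. Gm2093 had 0.0433 CPM, 1 read, in Foxp3-deficient library 5, and 0 reads in the other 3 Foxp3-deficient libraries.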

How the results depend on the processing

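Over all settings the log2 fold change of Zfr stayed between -1.57 and -1.47 against Foxp3-deficient cells and between -1.70 and -1.62 against WT cells. Counts for double-deficient against Foxp3-deficient cells depended most on the settings: of 3585 genes called, 2083 were called with the trend removed and a replicate block, 2382 in a fit of the groups compared alone, and 2153 to 4430 with single libraries left out (2153 without double-deficient library 5). The 11 segment genes called there became 7 with the replicate block, 6 with the trend removed, 5 with both, 6 in a fit of the 2 groups alone and 6 to 14 with libraries left out. Against the other 2 groups the 4532 genes called became 2909 with block and trend removal, and the 15 segment genes became 9 with the trend removed and 7 with both. A segment of 30 Mb held 58 genes, of which 21, 28, 11 and 29 passed in the 4 comparisons. Whether replicate numbers pair the libraries is not settled. Same-number correlations lay between -0.05 and 0.20, and 5 of 11 libraries correlated best with their own number. The named heterozygous genotype could yield Foxp3-deficient and WT libraries from 1 mouse. Between these groups the same-number correlations were all positive, at 0.157, 0.102, 0.0289 and 0.203, with the third under 0.1. The main fit did not use the numbers. The labels tie no library to an animal, so the block shares only a number. With it Ptger4 passed between Foxp3-deficient and WT cells (-0.34, edgeR adjusted p = 0.0334), and the calls of Tarbp2 and Hdac8 against the other 2 groups were lost (adjusted p = 0.173 and 0.0506). Card6 lost its call with the block and the trend removed together (adjusted p = 0.0798). Between Foxp3-deficient and WT cells, Nipbl changed sign at a value near 0.00: 0.01 with the trend removed, -0.16 to 0.11 with single libraries left out (0.03, 0.02, 0.11 and 0.10 without WT 3, WT 4, Foxp3-deficient 3 and Foxp3-deficient 5), and 0.05 without both Foxp3-deficient 1 and 3, a setting chosen after seeing the data. Skp2 stood at -0.17 without that pair. The cause was not tested. Few reads limit Gm2093, Capsl and Skp2.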
